A study of Drosophila melanogaster with 12 samples.

Results

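The comparison described here set adult female Drosophila melanogaster reared on the most protein-rich diet, with a protein-to-carbohydrate (P:C) ratio of 0.70, against females reared on the next diet down, at P:C 0.55. Its members are 6 of the 12 polyadenylated RNA libraries of the series, 3 at P:C 0.70 and 3 at P:C 0.55, chosen by the diet in their labels. The other 6 libraries, 3 at P:C 0.40 (the baseline diet of the stock) and 3 at P:C 0.25, were used only where named. Each library was made from a pool of 12 whole females of 1 outbred stock, the Baseline Population, kept at 25 °C. The females had been on their diet since the egg stage and were frozen on day 13 after egg collection. The diets were isocaloric, with sugar exchanged for yeast, so more protein always came with less carbohydrate. Days since eclosion were not given in the sources used here, so adult age and diet cannot be told apart. In whole flies, less of a tissue and less RNA per cell cannot be told apart either.

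A fly that eats yeast and sugar breaks protein down in the midgut with secreted trypsin-like and chymotrypsin-like proteases, and breaks complex carbohydrate down with glycosidases. The gut lining is protected by mucins and sealed by smooth septate junctions. Fatty acids are built, lengthened and reduced in the fat body and in the oenocytes, cells of the abdomen wall that also make cuticular hydrocarbons, while in a female much of the RNA comes from ovaries.

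The 3 samples at P:C 0.70 held 6094226, 13245114 and 10389451 counts, and the 3 at P:C 0.55 held 8327568, 6562744 and 6206520. A count of 3, taken as the detection floor, was worth 0.226 to 0.492 CPM (counts scaled to a common library total) in these samples, which covers counting error only. The yolk proteins Yp1, Yp2 and Yp3, made by females, were among the most abundant transcripts in every sample, with lowest values of 15137.5, 12126 and 12976 CPM. Of 84 male-enriched transcripts, 34 had no count in any of the 6 samples and 4 reached the test. Replicate 3 at P:C 0.55 nevertheless held counts of male reproductive transcripts: the accessory gland transcript Acp36DE had 2, 6 and 2 counts at P:C 0.70 and 0, 0 and 25 at P:C 0.55. Another accessory gland transcript, Acp26Aa, had 0, 0 and 1 counts at P:C 0.70 and 0, 1 and 9 at P:C 0.55. Without the esterase transcript Est-6, which made up most of its sum, the male list summed to 56.9, 58.9 and 48.1 CPM at P:C 0.70 and 43.8, 44.5 and 77.8 CPM at P:C 0.55. Replicate 3 at P:C 0.55 thus stood highest and the other samples of its diet lowest. With Est-6 the sums ran from 185 to 222 CPM at P:C 0.70 and from 241 to 289 CPM at P:C 0.55. roX1 (transcript roX1-RE), an RNA of male dosage compensation, had 46, 32 and 44 counts at P:C 0.70 and 13, 4 and 15 at P:C 0.55 (adjusted p = 0.116, not called). The part of these transcripts in the results was not tested, and counts without that library are given below.

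At P:C 0.70, 162 of 9603 tested transcripts passed the call rule, which asks for a Benjamini-Hochberg adjusted p under 0.05 in edgeR's quasi-likelihood test and a change of over 1.5-fold. This was 1.69% of those tested. Of the 162, 20 were higher at P:C 0.70 (0.208% of tested) and 142 were lower (1.48%). In all 162 the 3 values of each diet did not overlap, which was also true of 34.1% of the transcripts tested. Most changes were modest, since 27 of the 162 exceeded 2-fold, 7 of them higher and 20 lower at P:C 0.70. With scaling by library size alone, 70 transcripts were called, of which 31.4% were higher at P:C 0.70, against 12.3% in the fit with TMM scaling.

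The number of calls depended on single libraries. It was 1 without replicate 1 at P:C 0.70, 32 without replicate 2 and 421 without replicate 3. At P:C 0.55 it was 20 without replicate 1, 15 without replicate 2 and 770 without replicate 3, the library with the male transcripts. The sizes moved less than the calls: 109 of the 162 transcripts stayed over 1.5-fold in each of the 6 fits that left 1 library out. All 162 kept their sign in those fits, which the lack of overlap between the diets made all but certain. LManV, CG8834, CG9468 (LManVI), CG6295 and CG4562 (Mrp5) were called in 5 of the 6, each lost without replicate 1 at P:C 0.70. CG2962 was called in all 6 and TwdlD in 5, lost in the same fit. CG2962 and TwdlD passed the filter only through the samples at P:C 0.70, so their repeated calls add no support.

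**Figure D1:**
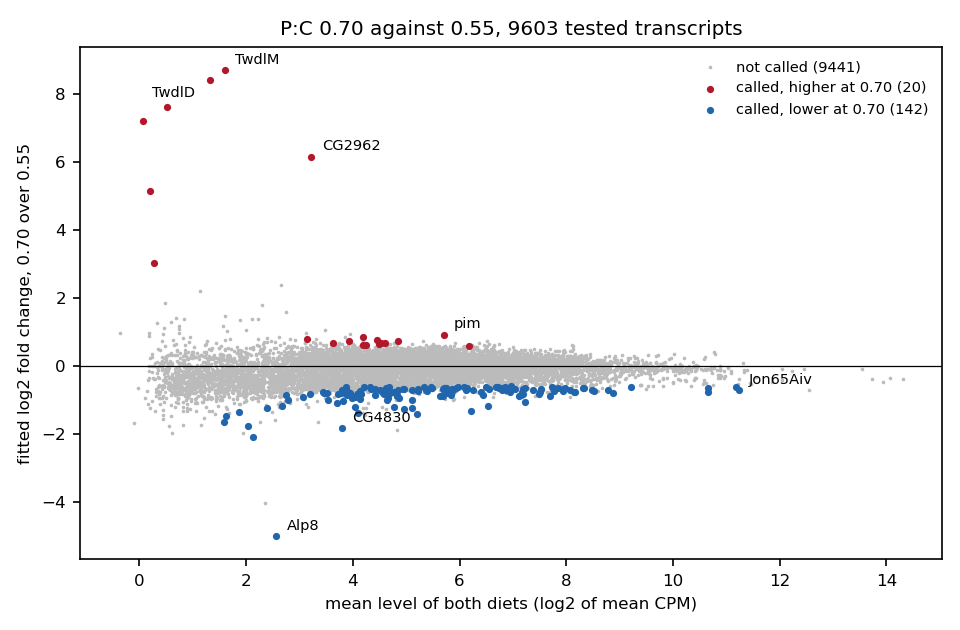
Fitted log2 fold change (0.70 over 0.55) against the log2 of the mean CPM of both diets, 1 point for each of 9603 tested transcripts. The 142 lower transcripts lie at low and high levels alike, whereas 7 of the 20 higher ones stand far from the rest at low levels, where the fitted value depends on the prior count.

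Digestive enzymes and proteins of the gut lining were among the transcripts lower at P:C 0.70. Among 31 tested digestive serine proteases, 6 were called, each of them lower. Over all tested transcripts 1.48% were called lower, the share to set beside the calls of each list below. The list had a median of -0.53 on the log2 fold change scale (all tested transcripts, -0.0058), and 30 of 31 were below 0. The median stayed between -0.54 and -0.44 under every scaling tried. The chymotrypsin-like protease Jon65Aiv had 1535, 1882 and 2068 CPM at P:C 0.70 and 3088, 2969 and 2876 CPM at P:C 0.55. Its highest value on the richer diet was thus well under the lowest on the other, a log2 fold change of -0.70 ± 0.11 (SE, adjusted p = 0.0327). Its neighbour Jon65Aiii fell by 0.75 on the log2 scale and averaged 1200 ± 166 CPM at P:C 0.70 and 2028 ± 154 CPM at P:C 0.55 (SD, n = 3 each). The trypsin epsilonTry had 266, 257 and 292 CPM at P:C 0.70 and 489, 410.1 and 429 CPM at P:C 0.55, with a log2 fold change of -0.70 ± 0.09 (SE, adjusted p = 0.0204). The serine protease yip7, thetaTry and Jon65Aii completed the 6, with log2 fold changes of -0.63, -0.87 and -0.65. Jon65Aiv, thetaTry and Jon65Aii were chosen after their values were seen. All 15 tested members of the Jonah family of gut proteases were below 0, at log2 fold changes of -0.75 to -0.03, of which 3 were called. The Jon65A genes lie side by side on chromosome 3L and are similar in sequence, so reads may be shared among them. With scaling by library size alone 3 of the 6 were called. Without replicate 1 at P:C 0.70 no protease of the list was called, nor any without replicate 2 of either diet, while 1 was called without replicate 1 at P:C 0.55, 9 without its replicate 3 and 11 without replicate 3 at P:C 0.70.

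The alpha-mannosidases that carry lysosomal enzyme names in the fly, which trim mannose from glycoproteins, were all lower at P:C 0.70 than at P:C 0.55. All 6 (LManI to LManVI) were called lower at P:C 0.70, with log2 fold changes of -1.46 to -0.67 and a median of -0.92. LManV (CG9466) had 102, 81.0 and 111 CPM at P:C 0.70 and 218, 179 and 212 CPM at P:C 0.55, a log2 fold change of -1.05 ± 0.13 (SE, adjusted p = 0.0187). LManII (LM408) had 192, 172 and 199 CPM at P:C 0.70 and 302, 296 and 302 CPM at P:C 0.55. LManIII (CG9463) averaged 16.7 ± 2.63 CPM at P:C 0.70 and 37.8 ± 6.54 CPM at P:C 0.55 (SD, n = 3 each). LManIII, LManIV, LManV and LManVI were highest at P:C 0.55 and did not fall steadily along the diets. Their means were 6.66, 0.843, 115 and 199 CPM at P:C 0.40, and 37.8, 4.50, 203 and 357 CPM at P:C 0.55. At P:C 0.70 they were 16.7, 1.69, 97.9 and 209 CPM. LManI and LManII averaged 22.6 and 331 CPM at P:C 0.40, near or above their means at P:C 0.55. LManIII to LManVI stand in tandem on chromosome 2L between 8765273 and 8781252 (BDGP6), so reads could be split among close copies. LManI and LManII lie apart from them, from 10452677 to 10462472 on the same arm. This and the other families described outside the written lists were grouped after their values were seen. Of the 19 tested digestive carbohydrases, the 4 called were mannosidases, and the list's median, -0.08, turned to 0.01 with scaling by library size alone, which left 2 calls in the list. Of the 6 mannosidases, 0, 3 and 4 were called without replicates 1, 2 and 3 at P:C 0.70, and 3, 3 and 6 without replicates 1, 2 and 3 at P:C 0.55.

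Alkaline phosphatases, several of which sit in the brush border of the gut or in renal tubules, were also lower. All 8 tested were below 0 and 3 were called. Alp8 (CG3264) had 0, 0.357 and 0.568 CPM at P:C 0.70 and 18.8, 11.3 and 4.47 CPM at P:C 0.55. That is 11 counts in all at P:C 0.70 and 249 at P:C 0.55, a ratio of 0.0293 with an exact 95% counting interval of 0.0145 to 0.0534. This interval, like the other counting intervals given below, pools the counts of a diet and leaves out the spread between its samples. Alp8 passed the filter on low counts only through the samples at P:C 0.55, so neither its p nor its call adds support to these counts. Alp2 (CG3290), which lies next to it on chromosome 2R, averaged 20.8 ± 3.17 CPM at P:C 0.70 and 48.3 ± 14.6 CPM at P:C 0.55 (SD, n = 3 each). Alp10 (CG10592) fell by 0.69 on the log2 scale. The family had no call without replicate 1 or 2 of either diet, 3 calls without replicate 3 at P:C 0.70 and 5 without replicate 3 at P:C 0.55.

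Among 7 tested pancreatic-type lipases, 3 were called, all lower, and the other 4 had log2 fold changes of -0.58 to -0.31. CG6295 had 199.6, 218 and 218 CPM at P:C 0.70 and 403, 336 and 338 CPM at P:C 0.55. It, CG6296 and CG17192, with log2 fold changes of -0.76, -0.63 and -1.17, lie within the span of RYa-R on the opposite strand, and the strand setting of the counting was not given in the sources used here. RYa-R (transcript RYa-R-RB) had a log2 fold change of -0.50 (adjusted p = 0.0904). CG31233, CG8773 and CG8774, which are aminopeptidase-like and were picked from among the calls, fell by 0.61, 0.69 and 0.69 on the log2 scale. Of 11 tested mucins, Muc68D and Mur29B were called, both lower, and 10 of 11 were below 0. Muc68D had 268, 234 and 333 CPM at P:C 0.70 and 465, 481 and 431 CPM at P:C 0.55. The 4 smooth septate junction transcripts looked at were below 0. Of these, mesh (-0.64) and hoka (CG13704, -0.77) were called, and Tsp2A (-0.58) and Ssk (-0.51) were not. mesh, Tsp2A and Ssk each overlap another transcript on the opposite strand. Lipase calls numbered 0, 1 and 3 without replicates 1, 2 and 3 at P:C 0.70, and 2, 2 and 3 at P:C 0.55, while no mucin or junction transcript was called without replicate 1 or 2 of either diet. With scaling by library size alone 1 mucin and no junction transcript was called.

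Transporter transcripts among the lower calls are given next, and apart from the organic anion transporters they were picked from the calls, so they describe no wider group. Mrp5 (CG4562), an ABC transporter of the multidrug resistance type, had 112, 118 and 109.6 CPM at P:C 0.70 and 180.1, 173 and 186 CPM at P:C 0.55 (log2 fold change -0.66 ± 0.07, SE, adjusted p = 0.0187), and overlaps CG4686 on the opposite strand. Picot, a sodium-dependent anion cotransporter, averaged 84.4 ± 4.63 CPM at P:C 0.70 and 137 ± 9.82 CPM at P:C 0.55 (SD, n = 3 each). Among 6 tested organic anion transporting polypeptides, Oatp33Eb and Oatp58Dc were called lower, by 0.71 and 0.98 on the log2 scale, and all 6 were below 0. Neither was called with scaling by library size alone, and Oatp33Eb overlaps CG5418 on the opposite strand. The nucleoside transporter CNT2 (CG8083) fell by 0.96 and the phosphate carrier of mitochondria, Mpcp1 (CG9090), by 0.63. CG43673, for which no role is stated here, had one of the 5 smallest p-values among lower transcripts and a log2 fold change of -0.77. MtnA, a metallothionein that binds copper and other metals, averaged 136 ± 21.0 CPM at P:C 0.70 and 229 ± 19.97 CPM at P:C 0.55 (SD, n = 3 each).

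Several enzymes that activate, lengthen and reduce fatty acids were lower at P:C 0.70. The acyl-CoA synthetase-like transcripts CG8834, CG4830, CG9993 and CG4563 are described together because they were called lower, so their count is fixed by the choice and says nothing of such enzymes as a group. Enzymes of this kind attach coenzyme A to fatty acids. DESeq2 called 2 of the 4, and so did the fit with scaling by library size alone. CG8834 had 107, 95.5 and 100.3 CPM at P:C 0.70 and 186, 173 and 189 CPM at P:C 0.55, a log2 fold change of -0.85 ± 0.08 (SE, adjusted p = 0.00977), the smallest p among lower transcripts. CG4830 had 4.38, 7.56 and 5.87 CPM at P:C 0.70 and 18.2, 21.8 and 25.2 CPM at P:C 0.55. Its log2 fold change of -1.82 ± 0.21 was the second largest among lower transcripts with a mean of at least 5 CPM, after Alp8. CG9993 and CG4563 stood at 1.04 to 8.32 CPM in these samples and had log2 fold changes of -1.22 and -1.75. CG4563 had 1.41, 2.93 and 1.04 CPM at P:C 0.70. Its call was lost when at least 10 counts were asked of every sample, and when counts were thinned to the lowest total.

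Fatty acyl-CoA reductases, which turn fatty acyl-CoA into alcohols for waxes and cuticular lipids, had 3 of 11 tested members called, all lower, and a median of -0.58. CG17560 had 35.5, 35.9 and 50.6 CPM at P:C 0.70 and 69.7, 81.9 and 68.8 CPM at P:C 0.55. Its neighbour CG17562 fell by 1.09 and CG10096, which overlaps CG34402 on the opposite strand, by 0.70 on the log2 scale. Among 23 tested transcripts of fatty acid synthesis and elongation, 3 were called, all lower, with a median of -0.23. These were v(2)k05816 (FASN2), an oenocyte fatty acid synthase (185 ± 31.8 CPM at P:C 0.70 and 306 ± 48.8 CPM at P:C 0.55, SD, n = 3 each), and the elongases eloF and bond, of which bond overlaps CR44062 on the opposite strand. The elongase eloF, required in females for long-chain hydrocarbon pheromones, had 68.2, 61.9 and 85.0 CPM at P:C 0.70 and 117, 104 and 109 CPM at P:C 0.55. Among 32 tested transcripts of lipid storage and transport, 4 were called, all lower, 3 of them acyl-CoA synthetase-like and the other Apoltp, a lipid transfer particle of the blood (-0.71). Chosen after their values were seen, the elongase CG16904 fell by 0.65, the acyl-CoA binding protein gene CG8628 (Acbp3) by 0.61 and oys, a membrane-bound O-acyltransferase, by 0.61, the last of which overlaps several transcripts on the opposite strand. The reductase and synthesis lists had no call without replicate 1 or 2 of either diet and 5 calls each without replicate 3 of either. With scaling by library size alone 1 reductase and none of the 3 synthesis transcripts was called, and DESeq2 did not call eloF. The storage list had 0, 2 and 5 calls without replicates 1, 2 and 3 at P:C 0.70, and 2, 1 and 4 at P:C 0.55.

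**Figure D2:**
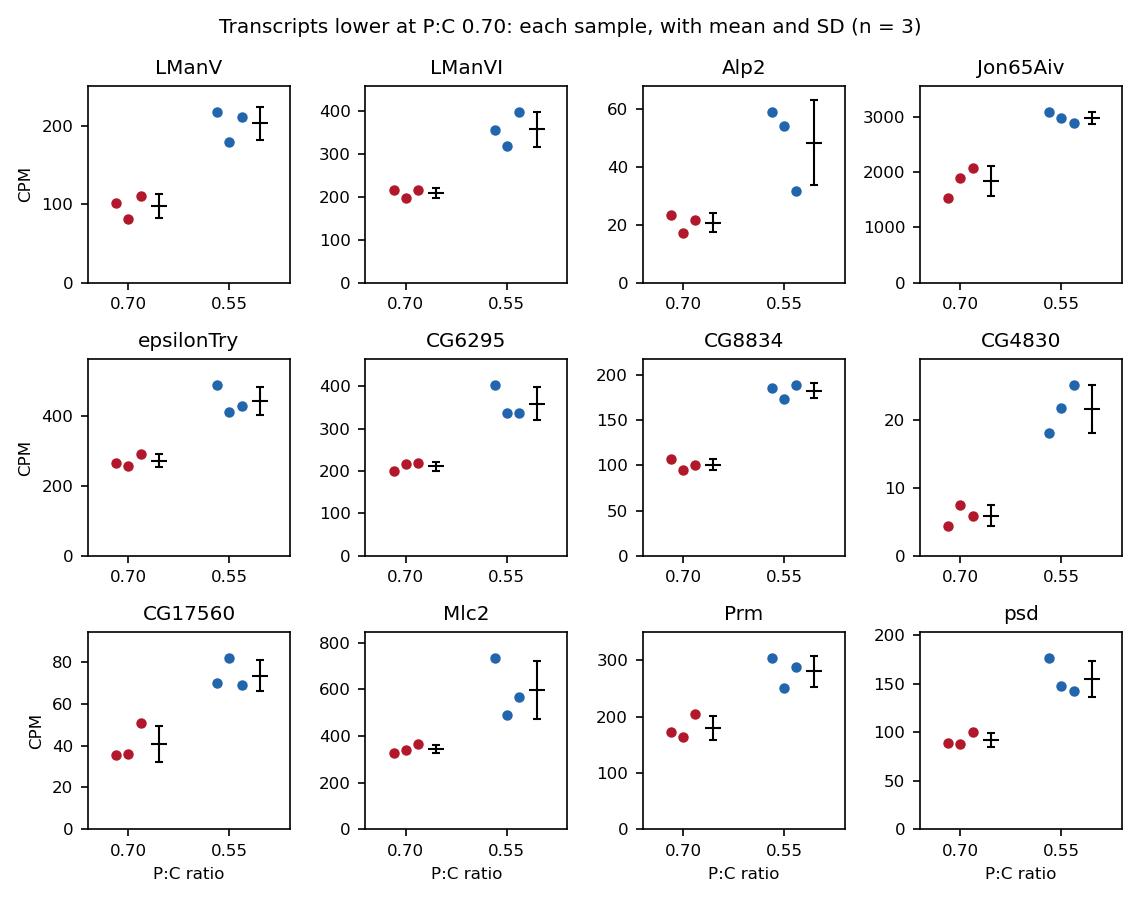
CPM of 12 transcripts that were lower at P:C 0.70, 1 point per sample, with the mean and SD (n = 3) beside them. In every panel the 3 points at P:C 0.70 lie under the 3 at P:C 0.55, which follows from the choice of panels. The diets did not overlap in any of the 162 called transcripts, nor in 34.1% of all tested.

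Lower transcripts outside these groups ranged over other functions, and those named next were chosen after their values were seen unless they were among the 10 largest changes. CG31272 had 19.1, 13.3 and 22.9 CPM at P:C 0.70 and 42.9, 47.3 and 40.6 CPM at P:C 0.55, a log2 fold change of -1.25 ± 0.19 (SE, adjusted p = 0.0327). Its antisense partner CR45015 fell by 1.37 on the log2 scale, and without a known strand setting reads of the pair cannot be told apart. CG7203 and CG7298, also among the 10 largest, fell by 1.41 and 1.19. mex1, a gene of the midgut, fell by 0.66, and Vha100-5, a subunit of the proton pump V-ATPase, by 0.60. PH4alphaEFB, a prolyl hydroxylase that modifies collagen, fell by 0.69, and the corazonin receptor CrzR by 0.78. The small heat shock protein gene l(2)efl fell by 0.74 and the transcription factor salm by 1.16. The calcium release channel RyR fell by 0.65, the microtubule-binding protein gene tau by 0.61 and the amino acid transporter gene CG9413 (sbm) by 0.67. Vha100-5, l(2)efl and tau overlap other transcripts on the opposite strand.

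Muscle, nerve and eye transcripts were on balance lower at P:C 0.70, with few calls. Of 30 sarcomere transcripts, 4 were called, all lower, 28 were below 0 and the median was -0.55. Mlc2, a myosin light chain, had 329, 338 and 364 CPM at P:C 0.70 and 734, 490.4 and 566 CPM at P:C 0.55, a log2 fold change of -0.79 ± 0.13 (SE, adjusted p = 0.0373). Paramyosin, Prm, averaged 179.9 ± 21.3 CPM at P:C 0.70 and 281 ± 27.7 CPM at P:C 0.55 (SD, n = 3 each). The other called members were the troponin C gene TpnC4 (-0.88) and Unc-89, now Obsc (-0.59), chosen after its value was seen. TpnC4, Syt1 and rdgA overlap other transcripts on the opposite strand. Of 32 neuronal transcripts, 1 was called, the synaptic calcium sensor Syt1 (-0.70), with 48.1, 39.0 and 47.3 CPM at P:C 0.70 and 83.996, 72.2 and 61.1 CPM at P:C 0.55. The neuronal median was -0.53. Of 28 phototransduction transcripts, the channel trp (-0.61) and the diacylglycerol kinase rdgA (-0.61) were called lower, with a median of -0.47. Among 23 neuropeptides, Nplp1 was called lower (-0.77), with a median of -0.54. With scaling by library size alone Mlc2 was the only call left in these 4 lists, and DESeq2 called no phototransduction transcript. These 4 lists had no call without replicate 1 or 2 at P:C 0.70 or without replicate 2 at P:C 0.55, and 1 call, a sarcomere transcript, without replicate 1 at P:C 0.55. Without replicate 3 at P:C 0.70 the sarcomere list had 14 calls and the neuronal list 8, and without replicate 3 at P:C 0.55 they had 15 and 14.

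Mitochondrial energy genes lay below 0 by a small amount, mostly without a call. Of 71 tested respiratory chain subunits, 70 were below 0, with a median of -0.34 that stayed between -0.35 and -0.25 under every scaling tried. Only 1 was called, a share near the 1.48% called lower over all tested transcripts. It was COX7AL2 (CG34172), a homologue of a cytochrome c oxidase subunit, which averaged 17.4 ± 2.02 CPM at P:C 0.70 and 30.4 ± 5.64 CPM at P:C 0.55 (SD, n = 3 each). A further 12 subunits had an adjusted p under 0.05 with changes below 1.5-fold. Citrate synthase, kdn, chosen after its value was seen, had 468, 424 and 525.8 CPM at P:C 0.70 and 806, 668 and 678 CPM at P:C 0.55. No subunit was called with scaling by library size alone, or without replicate 1 or 2 of either diet.

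Of 24 tested eggshell and vitelline membrane transcripts, 3 were called, all lower at P:C 0.70, and 23 were below 0, with a median of -0.32. Vml, a vitelline membrane protein, had 245, 248 and 265 CPM at P:C 0.70 and 436, 361 and 383 CPM at P:C 0.55, a log2 fold change of -0.64 ± 0.08 (SE, adjusted p = 0.0242). With scaling by library size alone it was not called. The vitelline membrane gene psd had 88.6, 87.8 and 100.4 CPM at P:C 0.70 and 177, 147 and 142 CPM at P:C 0.55. ndl, which encodes the eggshell protease Nudel, fell by 0.80 on the log2 scale and overlaps CG18769 on the opposite strand. The yolk protein Yp2 averaged lower, at a log2 fold change of -0.46, without passing (adjusted p = 0.0539). CG17234, a serine protease listed with the female reproductive tract, had 1.41, 1.78 and 1.70 CPM at P:C 0.70 and 3.41, 10.5 and 7.50 CPM at P:C 0.55, and fell by 2.07 on the log2 scale. Eggshell calls numbered 0, 0 and 5 without replicates 1, 2 and 3 at P:C 0.70, and 1, 0 and 4 at P:C 0.55. The summed level of the eggshell list overlapped between the diets, with 13540 to 18349 CPM at P:C 0.70 and 14883 to 21488 CPM at P:C 0.55. Neither DESeq2 nor scaling by library size alone gave a call for CG17234, and it was not called when any 1 of the samples at P:C 0.70, or replicate 2 at P:C 0.55, was left out.

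Germline and oocyte transcripts lay mostly above 0, without a call. Of 42 tested, 38 were above 0, with a median of 0.27 that stayed between 0.26 and 0.36 under every scaling tried. The smallest p was that of AGO3, a Piwi-type Argonaute of the germline, with 125, 139.8 and 123 CPM at P:C 0.70 and 106, 99.0 and 97.1 CPM at P:C 0.55 (log2 fold change 0.37 ± 0.08, SE, adjusted p = 0.0488), which is under 1.5-fold. The summed level of the germline list ran from 11924 to 13874 CPM at P:C 0.70 and from 9925 to 11886 CPM at P:C 0.55, so that the lowest and highest values of the diets nearly met. The yolk list, by contrast, summed to 42179 to 53514 CPM at P:C 0.70 and 56639 to 65521 CPM at P:C 0.55.

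Several of the modest calls higher at P:C 0.70 encode proteins of chromosome segregation. pim, the fly securin, which holds back separase until anaphase, had 62.7, 81.5 and 60.1 CPM at P:C 0.70 and 30.4, 37.1 and 40.6 CPM at P:C 0.55, a log2 fold change of 0.93 ± 0.15 (SE, adjusted p = 0.0373). mei-S332, the fly shugoshin that guards centromeric cohesion, averaged 27.6 ± 3.03 CPM at P:C 0.70 and 17.5 ± 1.54 CPM at P:C 0.55 (SD, n = 3 each), and it overlaps Vrp1 on the opposite strand. Det, the survivin of the chromosomal passenger complex, rose by 0.63 on the log2 scale. These 3 and 14 other mitotic and meiotic regulators were all above 0 (0.27 to 0.93), and the other 14 were not called. They were grouped after the values were seen, so these counts say nothing of such regulators as a group. Over all tested transcripts 4739 of 9603 were above 0 and 0.208% were called higher. Among the 14 not called, the separase gene thr had a log2 fold change of 0.63 (adjusted p = 0.0669). It overlaps CG14490 on the opposite strand. Chrac-14, a histone-fold subunit of a chromatin remodelling complex, was also called (35.9 ± 3.41 CPM at P:C 0.70 and 21.5 ± 2.63 CPM at P:C 0.55, SD, n = 3 each). The remaining modest calls were CG14965, Blos4, CG9926, hng2, CG2662 (Lint-O), CG12728, CG1024, tef and CG2371 (Vlet), at log2 fold changes of 0.59 to 0.86. CG14965, CG9926 and CG1024 each overlap another transcript on the opposite strand, and overlaps of tef and CG2371 are not given here. Without replicate 3 at P:C 0.55, 11 of the 17 regulators were called, and 6 without replicate 3 at P:C 0.70, but none without replicate 1 or 2 of either diet, and DESeq2 called 1.

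The steepest rises belonged to transcripts that had almost no reads at P:C 0.55, most of them for cuticle proteins, which build the chitin-bound layer of the body wall. Of 23 tested structural cuticle transcripts, 4 were called higher and 2 lower at P:C 0.70, but 17 of the 23 were below 0. The summed level of the list ran from 196 to 252 CPM at P:C 0.70 and from 251 to 399 CPM at P:C 0.55. The table held 120, of which 32 had no count in these samples and the rest did not pass the filter on low counts. A transcript absent on one diet passes that filter only through the diet on which it is present, so the 4 calls cannot be read as a share of the family. TwdlM, a Tweedle cuticle protein on chromosome 3R (26619118 to 26620224, BDGP6), had 48, 114 and 28 counts at P:C 0.70 and 0 in each sample at P:C 0.55. It was at least 42.1-fold higher against a floor of 3 counts over the 3 samples at P:C 0.55. This pooled floor is 0.146 CPM, below the floor of any single sample, so a bound against a single sample would be smaller. The bound and those below made in this way cover counting error only and leave out the spread between samples. TwdlD, about 20 kb away on the same arm (26640025 to 26641054), had 33, 54 and 64 counts at P:C 0.70 and 0 in each sample at P:C 0.55, which makes it at least 33.4-fold higher. Cpr65Ea, of the chitin-binding CPR family, had 1.41, 2.497 and 2.37 CPM at P:C 0.70 and none at P:C 0.55, at least 15.3-fold higher. TwdlY had 70 counts in all at P:C 0.70 and 1 at P:C 0.55, a ratio of 46.5 with a 95% counting interval of 8.08 to 1863. It overlaps CG9634 on the opposite strand. The fourth tested Tweedle transcript, TwdlE, had a log2 fold change of -0.23 and was not called. The 2 called lower were Cpr49Ae, with 42.7, 40.2 and 45.3 CPM at P:C 0.70 and 152, 71.4 and 93.9 CPM at P:C 0.55, and Cpr100A (-1.63).

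CG15022, Vajk1 and CG2962 shared this pattern. CG15022 had 18, 30 and 39 counts at P:C 0.70 and 0 in each sample at P:C 0.55, at least 19.3-fold higher. Vajk1 (CG16886), which overlaps Ance-3 on the opposite strand, had 16, 27 and 22 counts at P:C 0.70 and 0, 2 and 3 at P:C 0.55, a ratio of 8.64 with a 95% counting interval of 3.52 to 27.5. CG2962, on chromosome X (10214858 to 10216642), had 20.2, 16.5 and 18.7 CPM at P:C 0.70 and 0.378, 0.313 and 0 CPM at P:C 0.55. It had 558 counts at P:C 0.70 and 5 at P:C 0.55, a ratio of 74.1 with a 95% counting interval of 31.6 to 229, and an adjusted p of 0.000766. Like the cuticle transcripts, these 3 passed the filter on low counts only through the samples at P:C 0.70, so neither their p nor their calls add support to the counts. It overlaps the ATP synthase transcript l(1)G0230-RA on the opposite strand, whose own log2 fold change was -0.25 and which was not called.

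These low transcripts were not seen at P:C 0.70 alone. In the whole table, 8 transcripts had at least 10 counts in every sample at P:C 0.70 and at most 3 in every sample at P:C 0.55, and 0 had the reverse. The 8 are CG2962, CG15022, CG15731, EAChm (CG13463), TwdlD, TwdlM, TwdlY and Vajk1, a set chosen by its values and given as a description. Their summed counts were 6, 10 and 12 in the samples at P:C 0.25, 54, 8 and 526 at P:C 0.40, 3, 4 and 4 at P:C 0.55, and 321, 522 and 439 at P:C 0.70. Replicate 3 at P:C 0.40 thus held as many as the samples at P:C 0.70, and 7 of the 8 had at least 10 counts in it, while the other replicates of that diet held few. TwdlM, for example, had 2, 0 and 160 counts at P:C 0.40. In the fit of all 12 samples, which takes in that spread, no structural cuticle transcript was called higher, and DESeq2 called none. Structural cuticle calls higher at P:C 0.70 numbered 0 without its replicate 1, 2 without its replicate 2 and 6 without its replicate 3, and 1, 1 and 7 without replicates 1, 2 and 3 at P:C 0.55.

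**Figure D3:**
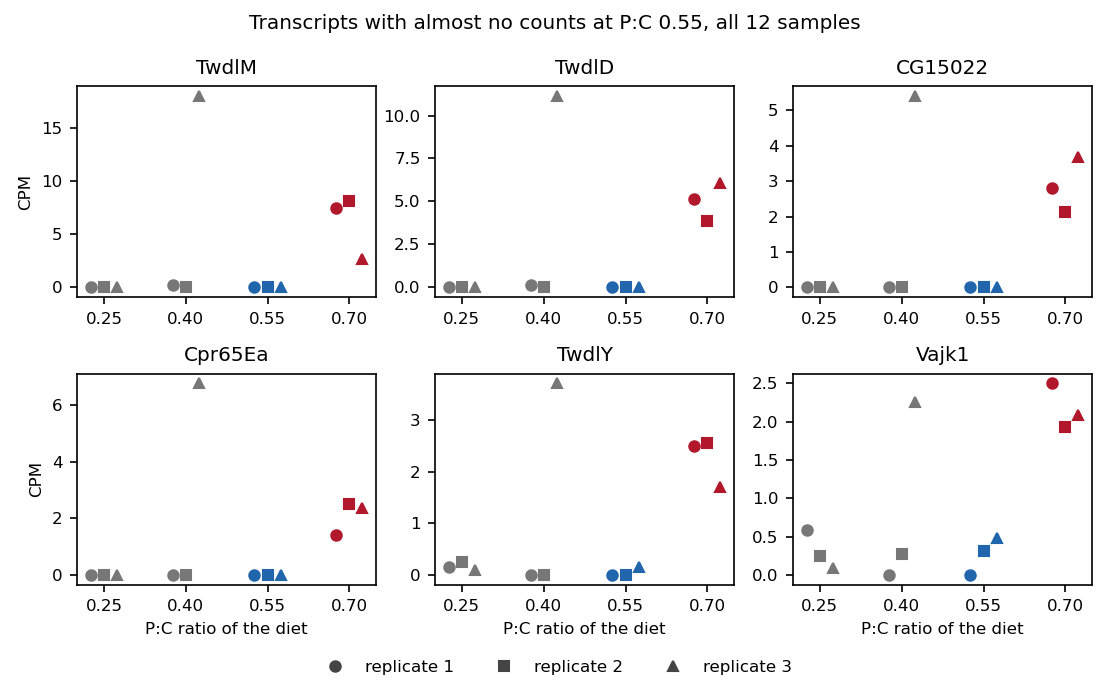
CPM of 6 transcripts in all 12 samples by P:C ratio, with a marker for each replicate number. All samples at P:C 0.25 and 0.55 lie near 0, all 3 at P:C 0.70 lie above them, and at P:C 0.40 replicate 3 stands apart from the other replicates.

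Of the 35 written lists, 14 had at least 1 call at P:C 0.70, and 40 of the 1057 list members tested were called, 4 of them higher. Over all tested transcripts 162 of 9603 were called (1.69%). Cytoplasmic ribosomal proteins (84 tested, median -0.08), translation factors (43 tested, -0.03), aminoacyl-tRNA synthetases (24 tested, -0.0043) and insulin and TOR signalling (33 tested, -0.05) had no call, and each of these medians turned positive with scaling by library size alone. Proteasome subunits (33 tested, 0.09) and mitochondrial ribosomal proteins (70 tested, 0.10) had medians above 0 under every scaling tried and no call. Antimicrobial and immune transcripts had a median of -0.53 with no call, amid wide spread: their summed level ran from 958 to 1063 CPM at P:C 0.70 and from 1059 to 1824 CPM at P:C 0.55. Among 123 detoxification transcripts, Cyp4ad1, a cytochrome P450, was the only call (-0.83), a smaller share than the 1.48% called lower over all tested. It was lost without replicate 1 or 2 of either diet, and with scaling by library size alone the list had 0 lower calls and 1 higher. In amino acid and purine catabolism, glutamine synthetase Gs2 had a log2 fold change of -0.58 (adjusted p = 0.0480), just short of 1.5-fold, and no member was called. Akh, the adipokinetic hormone that mobilises stored lipid and sugar, had 1.41, 1.21 and 1.70 CPM at P:C 0.70 and 3.66, 3.91 and 2.39 CPM at P:C 0.55, which did not pass (log2 fold change -1.21, adjusted p = 0.0670).

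In lists with no call, the member with the smallest p is given by its log2 fold change. Values below 0 at P:C 0.70 were found for Gpo-1 of glycerol phosphate metabolism (-0.53, adjusted p = 0.0523), the immune peptide gene Drsl4 (-0.53, adjusted p = 0.0570), the odorant-binding protein gene Obp44a (-0.70, adjusted p = 0.0619) and the chaperone gene Hsc70-1 (-0.55, adjusted p = 0.0702). The ecdysone-response receptor Hr46 (Hr3), the transcription factor kay, the storage protein gene Lsp1beta and the clock gene Pdp1 had -0.47, -0.51, -0.77 and -0.34. RpLP0 of the ribosome, Fib of ribosome biogenesis, Pgd of the pentose phosphate pathway and Est-6, an esterase on the male list, had -0.24, -0.22, -0.20 and -0.52. Pu, of pteridine synthesis, had -0.54 (adjusted p = 0.0484) and stayed under 1.5-fold. Values above 0 were found for eIF-4E, which binds the mRNA cap (0.25), mRpL18 (0.33), Aats-met (MetRS-m, 0.36) and Rpt3R (0.86), none of which passed. Of these, Obp44a, kay, Pgd, Est-6, Pu, mRpL18, Aats-met and Rpt3R overlap another transcript on the opposite strand.

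**Figure D4:**
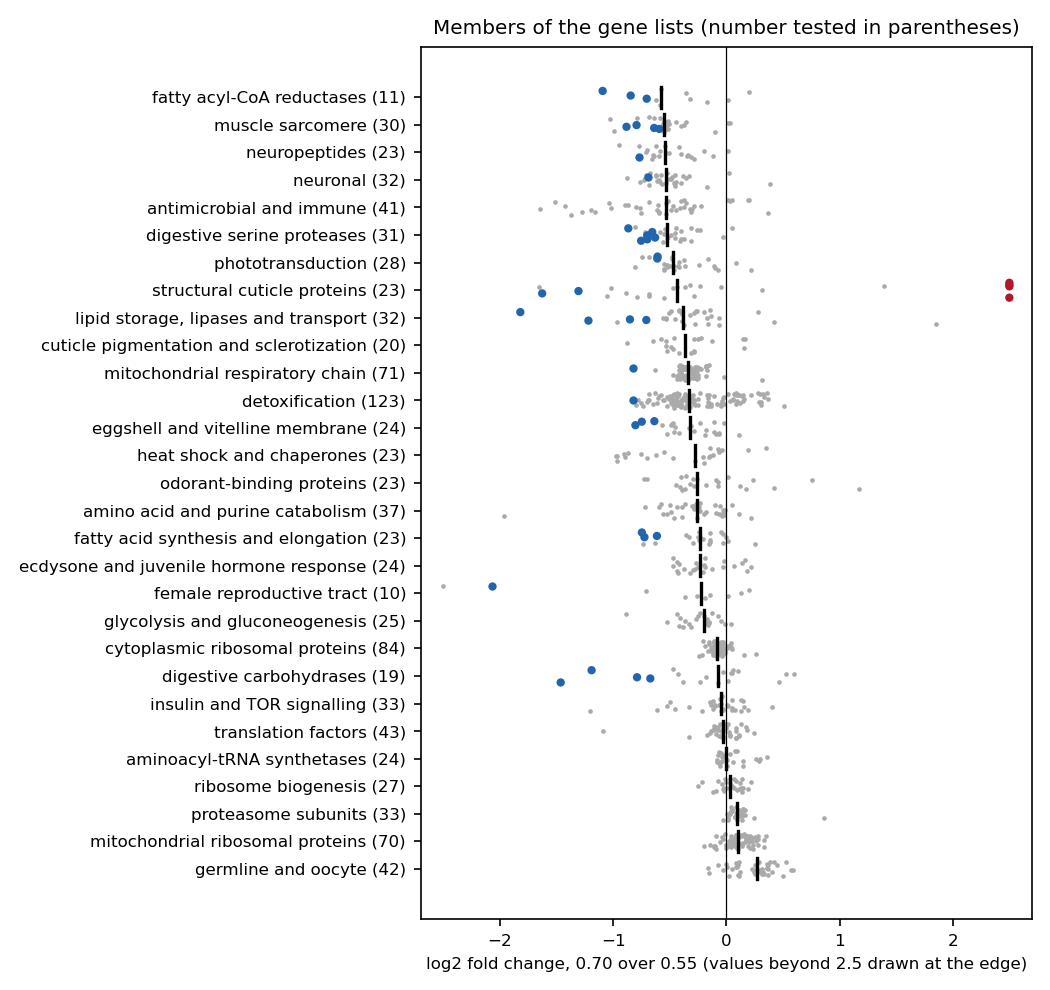
Log2 fold change (0.70 over 0.55) of each tested member of the 29 lists with at least 10 tested members, with the list median as a bar and called members in colour. Medians run from -0.58 for fatty acyl-CoA reductases to 0.27 for germline and oocyte transcripts, and values beyond 2.5 are drawn at the edge.

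An equal step in P:C ratio at the protein-poor end, 0.40 against 0.25, was measured in 6 other samples. Of the 142 transcripts lower at P:C 0.70, 141 had a value there, and 128 were again below 0 (median -0.31), whereas 47.2% of all transcripts tested in both steps were below 0. The step at the poor end itself had 62 calls (0.636% of 9743), 2 higher and 60 lower, and 9 of the 142 were called lower in both. These 9 were Alp8, Alp2, Alp10, Mlc2, Prm, TpnC4, kdn, CNT2 and CG7203. At the protein-rich step, Alp8 passed the filter on low counts only through P:C 0.55, as given above. Alp8 averaged 119 ± 8.75 CPM at P:C 0.25, 12.6 ± 6.07 at 0.40, 11.5 ± 7.16 at 0.55 and 0.308 ± 0.287 at 0.70 (SD, n = 3 each). Mlc2 averaged 1479 ± 71.1, 660.5 ± 99.7, 597 ± 125 and 343 ± 18.1 CPM in the same order (SD, n = 3 each). Calls at the poor end numbered 4, 28 and 2 without replicates 1, 2 and 3 at P:C 0.40, and 35, 394 and 2 without those at P:C 0.25, while 116 to 131 of the transcripts lower at P:C 0.70 stayed below 0 there. Of the 20 transcripts higher at P:C 0.70, 13 had a value and 9 of them were above 0 (median 0.13).

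Some transcripts called lower at P:C 0.70 had values near or above 0 at the poor end. Vml had log2 fold changes of -0.64 for 0.70 against 0.55 and 0.38 for 0.40 against 0.25, and ndl had -0.80 and 0.45. Jon65Aiii had -0.75 and 0.04. A direct test of the difference between the steps, over all 12 samples with edgeR's quasi-likelihood test, called 0 of 9928 transcripts, with 962 at an unadjusted p under 0.05. The smallest adjusted p was 0.0557, that of CG31233, so no transcript was shown to differ between the steps.

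**Figure D5:**
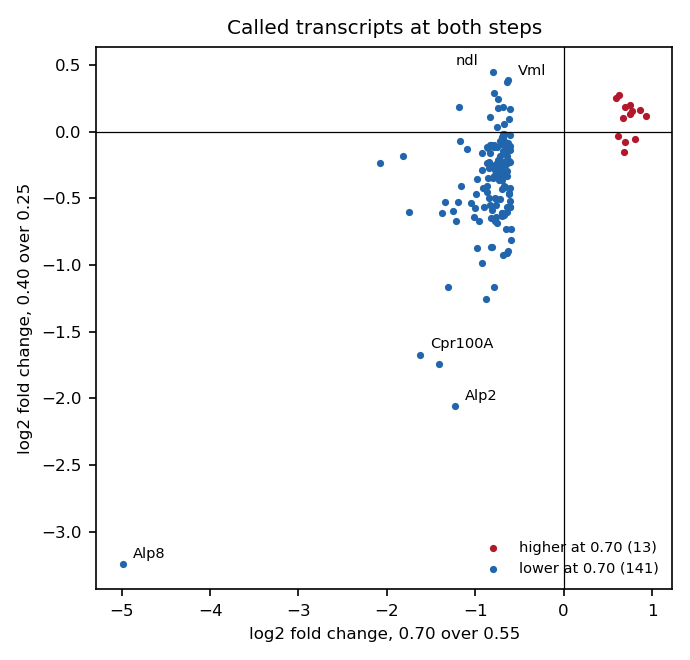
Log2 fold change of the called transcripts at the protein-rich step (0.70 over 0.55) against that at the protein-poor step (0.40 over 0.25), which was measured in other samples. Of the 141 transcripts lower at P:C 0.70, 128 lie below 0 on the vertical axis, and Alp8 is the lowest on both axes.

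The 6 libraries separated by diet on the first principal component of log2 CPM, which held 52.7% of the variance. Scores were 18.1, 28.8 and 4.77 at P:C 0.70 and -31.2, -17.5 and -2.999 at P:C 0.55, so replicate 3 of each diet lay nearest to the other diet. The diet means lay 34.5 apart, with an exact permutation p of 0.10 (two-sided, n = 3 each), the smallest that 3 against 3 can give. The mean Euclidean distance over log2 CPM was 46.5 between libraries of different diets and 36.5 within a diet. Of the called transcripts, 21.8% of the lower and 40% of the higher ones overlapped another transcript of the table, against 46.2% of all tested.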

How the data were processed

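RNA was sequenced from 12 pools of whole females. Trimmed reads had been mapped by the authors to BDGP6 with HISAT2, and they deposited raw counts for 1 transcript per gene (15448 in all), quantitated in Seqmonk. No aggregate rows were present. The deposited counts of the 6 samples were filtered (filterByExpr), scaled by TMM and tested with edgeR 4.0.16 (glmQLFit, glmQLFTest, R 4.3.3). Calls needed both an adjusted p (Benjamini-Hochberg) below 0.05 and more than a 1.5-fold change. CPM used TMM scaling over all 12 samples, and SE is the log2 fold change over the root of F. On simulated data with 200 transcripts above a minimum level changed 2-fold, 188 of 200 were called, with 1 false call. The simulated counts followed the dispersion trend alone and held no shift of a whole library, and most real calls were under 2-fold. They therefore check the code and do not give the power or error rate of this comparison. Nothing says whether the pools of a diet came from separate cultures, so p-values measure the spread between pools.

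The diets, lists and families were chosen with earlier results of these data known. Named transcripts were the 10 largest changes in each direction among called transcripts with a mean of at least 5 CPM, the 5 smallest p in each direction, and up to 3 called members of each list, or the member with the smallest p. Others named were chosen after their values were seen, as were the families outside the lists and the transcripts that were nearly absent at P:C 0.55. DESeq2 1.42.0 with apeglm 1.24.0 and other scalings, filters and sample sets were tried as alternatives. Lists were described by counts and medians, with no test. Promoter motifs were not analysed here.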

Additional observations from a re-analysis of the deposited data

How the results depend on the processing

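All 162 calls kept their direction in the 6 fits that left 1 library out, which values that do not overlap between the diets make all but certain. Of 1228 refits of the named transcripts, 916 kept the same side of the threshold, 292 lost the call, 20 gained it and 0 reversed. The total of 162 calls (20 higher, 142 lower, 40 in lists) became 70 (22 higher, 48 lower, 18 in lists) with scaling by library size alone. It became 263 (51 higher, 212 lower) without a filter, 304 (41 higher, 263 lower) with all 12 samples in the fit, 253 (43 higher, 210 lower, 69 in lists) without a fold-change minimum, and 96 (26 higher, 70 lower, 25 in lists) without that minimum and with scaling by library size alone. With at least 10 counts in every sample, 13 were higher. DESeq2 called 170, of which 114 were shared. Leaving out 1 library gave 1 to 770 calls (1 to 240 higher, 0 to 530 lower, 0 to 123 in lists). The cause of these moves was not tested.

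With the replicate number as a block, calls numbered 2 (1 higher, 1 lower, 0 in lists). Deviations of samples with the same number correlated at -0.05, -0.10 and -0.39, and no sample correlated best with its own number in the other diet. With so few samples these values cannot settle whether the number marks a shared batch. The block also leaves fewer degrees of freedom for the test. The step of 0.40 against 0.25, with 62 calls, had 109 by library size alone, 130 with the block and 2 to 394 with 1 library left out, and the difference between the steps had 0 calls, 7 with the block and 0 in each fit with 1 library left out. Promoter motifs were not run. Depth limits the low transcripts, where 3 counts are 0.226 to 0.492 CPM.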
